A study of Mus musculus with 6 samples.

Results

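Phagocytes find injured tissue by reading gradients of small attractants with heptahelical receptors that couple to inhibitory G proteins. The 10 genes described here encode such receptors or a close relative: the formyl peptide receptors Fpr1 and Fpr2, the anaphylatoxin receptors C5ar1, C5ar2 and C3ar1, the leukotriene B4 receptor Ltb4r1, the CXC chemokine receptor Cxcr2, the CC chemokine receptors Ccr1 and Ccr2, and the fractalkine receptor Cx3cr1. Fpr1, Cxcr2 and Ltb4r1 are typical of neutrophils, Ccr2 of inflammatory monocytes and Cx3cr1 of patrolling monocytes and some macrophages, while C5ar1 and Ccr1 are shared among myeloid cells. In lung these receptors are known for bringing neutrophils and monocytes out of the blood and through the capillary wall. The genes were picked by name from the 23194 genes of the deposited table, with the difference between injured and naive lungs already known, so their differences are given as a description and not as a test. All 10 had a row and all 10 passed the filter on low counts, which kept 15486 genes.

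The samples were left lungs, 1 library each, from adult mice of the inbred strain C57BL/6 with a wild type genotype. The 3 injured lungs had undergone ligation of the left pulmonary artery for 4 h, a warm ischemia in a breathing animal, followed by reperfusion for 24 h (the shared protocol text mentions 4 h or 5 h, the sample titles 4 h). The 3 naive lungs came from control mice that are not described as operated on, so surgery and ischemia cannot be told apart. No label names separate litters, cages or days, so p-values measure the spread between these samples. The libraries held 18913487 to 34986276 gene counts, and the totals of injured and naive lungs gave p = 0.4 in an exact two-sided permutation test, which cannot go under 0.1 here. Lung identity was plain in all libraries: Sftpc, the surfactant protein of alveolar type 2 cells, had 13755 to 15011 CPM, counts scaled to one library size after TMM normalization, in injured and 14951 to 16904 CPM in naive lungs.

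The 8 genes called higher included the receptors of every ligand class except fractalkine. At an adjusted p under 0.05 in edgeR's quasi-likelihood fit, 8 of the 10 were higher and 0 lower in injured lungs, where 2.16% of all genes tested were called higher, 0.956% lower and 3.11% in either direction. At an unadjusted p under 0.05 the count was 9 higher and 0 lower, DESeq2 called 8 higher and 0 lower, and limma-voom called 7 higher and 0 lower. Of all 15486 genes tested, the unadjusted rule gave 1403 higher and 1186 lower. DESeq2 called 585 of all genes higher and 417 lower, and limma-voom 308 higher and 136 lower. The median log2 fold change of the 10 was 1.18, beside -0.00096 over all genes tested. For 9 of the 10 the lowest injured lung lay above the highest naive lung, which held for 12.3% of all genes tested. Because the genes were chosen with this difference known, nothing is read from these shares. With 1 library left out, between 4 and 7 of the 10 were called higher, with 4 without injured replicate 2 or naive replicate 1 and 5 without injured replicate 1 or naive replicate 2.

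The core motif of PU.1, the transcription factor that directs myeloid development, was searched in the 250 bases before the annotated start of each receptor gene. Fpr2, Ltb4r1, Cxcr2 and Ccr1 held it, and it played no part in choosing them. The sequences are from RefSeq on GRCm38.p6, whose table held all 10 genes, and are printed 5′ to 3′ on the gene's strand with motif matches in capitals. For C5ar1 and Ccr2 the RefSeq start lay 202 and 233 bases inside the gene coordinates given below. Most of both stretches therefore lies within those genes. GAGGAA or its reverse complement TTCCTC marks the PU.1 core. TATAAA in either orientation marks the letters of a TATA box, wherever they lie in the stretch. The stretch of Cx3cr1, the gene with the smallest difference, is shown for comparison and held neither.
Cxcr2, chr1:74153744-74153993, plus strand: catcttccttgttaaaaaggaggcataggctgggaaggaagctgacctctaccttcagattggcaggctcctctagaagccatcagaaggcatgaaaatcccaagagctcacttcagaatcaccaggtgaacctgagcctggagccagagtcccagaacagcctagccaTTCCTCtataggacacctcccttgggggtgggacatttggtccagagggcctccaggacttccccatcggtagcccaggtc
Ccr1, chr9:123968693-123968942, minus strand: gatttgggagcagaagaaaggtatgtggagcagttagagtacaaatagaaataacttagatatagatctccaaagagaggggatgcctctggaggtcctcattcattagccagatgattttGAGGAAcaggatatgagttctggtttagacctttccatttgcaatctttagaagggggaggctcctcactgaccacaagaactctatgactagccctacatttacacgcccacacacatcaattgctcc
Ltb4r1, chr14:55765712-55765961, plus strand: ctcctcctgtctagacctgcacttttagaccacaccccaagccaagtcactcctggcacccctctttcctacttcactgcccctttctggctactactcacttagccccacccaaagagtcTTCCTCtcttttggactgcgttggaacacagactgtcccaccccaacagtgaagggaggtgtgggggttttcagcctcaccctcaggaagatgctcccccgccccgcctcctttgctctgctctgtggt
Fpr2, chr17:17887574-17887823, plus strand: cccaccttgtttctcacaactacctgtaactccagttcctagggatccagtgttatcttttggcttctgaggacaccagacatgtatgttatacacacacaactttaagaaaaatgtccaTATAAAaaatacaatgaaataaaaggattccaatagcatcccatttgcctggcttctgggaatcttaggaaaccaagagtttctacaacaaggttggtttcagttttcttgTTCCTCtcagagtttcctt
Cx3cr1, chr9:120068297-120068546, minus strand: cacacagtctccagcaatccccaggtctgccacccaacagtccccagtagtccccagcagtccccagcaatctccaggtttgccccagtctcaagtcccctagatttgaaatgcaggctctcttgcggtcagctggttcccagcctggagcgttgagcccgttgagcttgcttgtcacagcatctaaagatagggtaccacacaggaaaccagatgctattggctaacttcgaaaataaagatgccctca
The PU.1 core was found in 4 of the 10 stretches and in 23.3% of the 32851 stretches of the same length in the table. It was absent from those of Fpr1, C5ar1, C3ar1 and Ccr2, which were called higher. The stretches of C5ar2 and Cx3cr1, which were not called, lacked it too. The TATA box letters were found in 3 of the 10 and in 12.4% of all stretches. Their first base lay at -227 from the start in Fpr1, -130 in Fpr2 and -235 in C3ar1. The search took no account of position, so these matches do not mark TATA box promoters. The C/EBP pattern TTGCNNAA, searched on both strands, was found in C5ar2 alone among the 10 and in 9.56% of all stretches. No matches of different motifs overlapped in the 10 stretches. These are matches of letters in a window and say nothing of binding.

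The formyl peptide receptors sense peptides released by bacteria and by damaged mitochondria. Fpr1 (ENSMUSG00000045551, chromosome 17, 17876471 to 17883940 in mm10, minus strand), the high-affinity receptor, had 30.02, 27.5 and 21.0 CPM in injured replicates 1 to 3, against 11.7, 16.0 and 14.8 CPM in naive replicates 1 to 3. The groups did not overlap, with the lowest injured lung 1.31 times the highest naive lung. The log2 fold change of Fpr1, injured over naive, was 0.89 ± 0.16 (SE). Fpr2 (ENSMUSG00000052270, chromosome 17, 17887824 to 17893952, plus strand), which also responds to serum amyloid A and annexin A1 peptides, had 14.6, 15.1 and 10.3 CPM in injured lungs, against 5.68, 7.14 and 4.65 CPM in naive lungs. Its log2 fold change was 1.21 ± 0.21. The pair is transcribed divergently from starts on either side of a gap of 3.88 kb. Relative to Fpr1, per gene length, Fpr2 stood at 0.568, 0.643 and 0.576 in injured lungs and 0.566, 0.522 and 0.367 in naive lungs. These ranges lay next to each other without overlap, since injured replicate 1 and naive replicate 1 were nearly equal. Of the 50-base words in Fpr2 transcripts, 31.5% also occur in transcripts of other genes, mostly the pseudogene Gm5966 with 28.4%, whereas 0.0784% of those of Fpr1 do. How the counting treated such reads is not given in the sources used here, so the level of Fpr2 is uncertain. The call of Fpr1 was lost without injured replicate 1 or 2 or naive replicate 1 or 2, and that of Fpr2 without injured replicate 1 or 2.

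**Figure D1:**
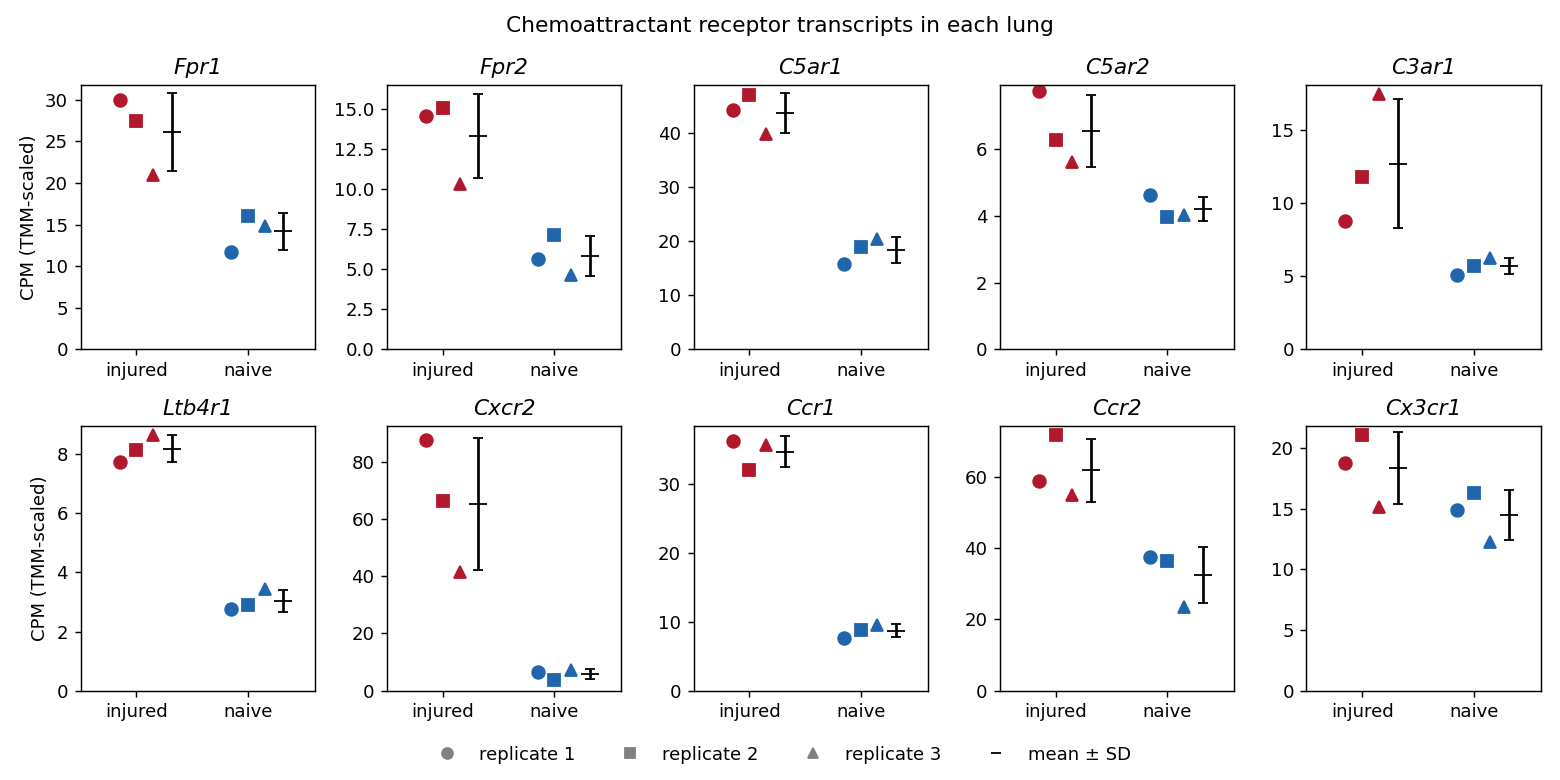
TMM-scaled CPM of the 10 receptor genes in each lung (y axes, each from 0), with injured lungs in red on the left, naive lungs in blue on the right, replicates 1 to 3 as circle, square and triangle, and black bars for mean ± SD (n = 3). The injured lungs lie above the naive lungs without overlap in 9 panels, and overlap with them for Cx3cr1, where injured replicate 3 at 15.1 CPM lies under naive replicate 2 at 16.3 CPM.

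The anaphylatoxin receptors read the small fragments cut from complement proteins during activation. C5ar1 (ENSMUSG00000049130, chromosome 7, 16246743 to 16259540, minus strand), the G protein-coupled receptor of C5a, had 44.2, 46.8 and 39.7 CPM in injured lungs, against 15.8, 18.9 and 20.3 CPM in naive lungs. Its lowest injured lung stood at 1.96 times its highest naive lung, and its log2 fold change of 1.25 ± 0.12 varied between 1.14 and 1.33 with 1 library left out. C5ar2 (ENSMUSG00000074361, chromosome 7, 16234585 to 16244154, minus strand), a C5a receptor that does not signal through G proteins, lies 2.59 kb from C5ar1 on the same strand. It had 7.74, 6.29 and 5.61 CPM in injured lungs, against 4.64, 3.97 and 4.04 CPM in naive lungs. The groups did not overlap, but the log2 fold change of 0.63 ± 0.20 was not called. Per gene length, C5ar2 stood at 0.126, 0.0969 and 0.102 of C5ar1 in injured lungs and at 0.212, 0.151 and 0.144 in naive lungs. The ratio was lower in each injured lung than in any naive lung.

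C3ar1 (ENSMUSG00000040552, chromosome 6, 122847138 to 122856161, minus strand), the receptor of C3a, had 8.78, 11.8 and 17.5 CPM in injured lungs, against 5.11, 5.71 and 6.23 CPM in naive lungs. The groups did not overlap, yet injured replicate 3 stood well above injured replicate 1. Its log2 fold change was 1.16 ± 0.24 with all libraries and 0.86 without injured replicate 3. The call was lost by limma-voom and without any 1 library except injured replicate 1.

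Ltb4r1 (ENSMUSG00000046908, chromosome 14, 55765962 to 55768494, plus strand) is the high-affinity receptor of leukotriene B4, a lipid that relays the attraction of neutrophils to sites of damage. It had 7.74, 8.15 and 8.65 CPM in injured lungs, against 2.76, 2.91 and 3.45 CPM in naive lungs. The injured lungs lay close together, with a coefficient of variation of 5.56%, the lowest of the 10 genes, and the lowest of them stood at 2.24 times the highest naive lung. The log2 fold change was 1.42 ± 0.18 and remained called with any 1 library left out. Ltb4r2, the low-affinity receptor 2.73 kb away, was near its detection limit, with 5, 10 and 1 counts in injured lungs and 13, 1 and 16 counts in naive lungs.

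Cxcr2 (ENSMUSG00000026180, chromosome 1, 74153989 to 74161246, plus strand) is the main receptor through which mouse neutrophils follow CXC chemokines. It had 87.6, 66.4 and 41.6 CPM in injured lungs, against 6.49, 3.86 and 7.20 CPM in naive lungs. This was the widest separation among the 10 genes, with the lowest injured lung 5.78 times the highest naive lung. The log2 fold change was 3.45 ± 0.36, a 10.95-fold difference. The call was lost without naive replicate 1, where the log2 fold change was 3.51. Injured lungs also differed most among themselves for this gene, with a coefficient of variation of 35.3%. Cxcr1, its neighbour 30.5 kb away, had 1.79, 1.20 and 0.844 CPM in injured lungs and 0.907, 0.899 and 0.234 CPM in naive lungs, and was not called (adjusted p = 0.424, edgeR).

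Ccr1 (ENSMUSG00000025804, chromosome 9, 123962126 to 123968692, minus strand), a receptor of several inflammatory CC chemokines on neutrophils, monocytes and macrophages, had 36.2, 32.04 and 35.6 CPM in injured lungs, against 7.66, 8.83 and 9.57 CPM in naive lungs. Its lowest injured lung stood at 3.35 times its highest naive lung, and its log2 fold change was 1.99 ± 0.12, between 1.90 and 2.07 with 1 library left out. Ccr2 (ENSMUSG00000049103, chromosome 9, 124101950 to 124113557, plus strand), which monocytes need to leave the bone marrow, had 58.8, 71.8 and 54.8 CPM in injured lungs, against 37.6, 36.4 and 23.4 CPM in naive lungs. The groups did not overlap, and naive replicate 3 was lowest. The log2 fold change of Ccr2 was 0.93 ± 0.19 with all libraries and 0.73 without naive replicate 3. Its call was lost with library size alone and without any 1 library except naive replicate 3.

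Cx3cr1 (ENSMUSG00000052336, chromosome 9, 119901616 to 120068283, minus strand), the receptor of the membrane-bound chemokine fractalkine, showed the smallest difference. It had 18.8, 21.1 and 15.1 CPM in injured lungs, against 14.9, 16.3 and 12.3 CPM in naive lungs, and these ranges overlapped. Its log2 fold change of 0.34 ± 0.16 was not called with all libraries or with any 1 left out. Per gene length, Cx3cr1 stood at 0.459, 0.422 and 0.397 of Ccr2 in injured lungs and at 0.570, 0.643 and 0.754 in naive lungs. These ranges did not overlap.

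**Figure D2:**
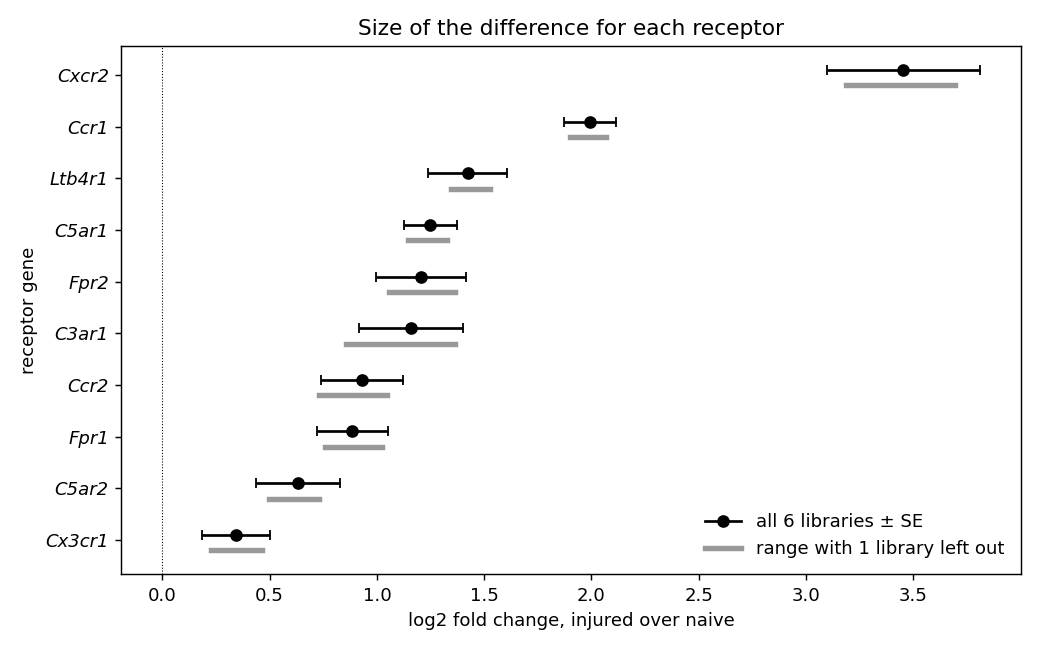
Log2 fold change of injured over naive lungs (x axis) for each receptor gene (y axis), as black points with SE from all 6 libraries and grey bars for the range when 1 library was left out. The estimates run from 0.34 for Cx3cr1 to 3.45 for Cxcr2, and no grey bar reaches 0.

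In the authors' deposited table the log2 fold changes of the 10 genes, each smaller than the value fitted here, ran from 0.29 for Cx3cr1 to 2.55 for Cxcr2, with Ccr1 at 1.78 in second place.

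Levels of different genes were compared per gene length, as FPKM (fragments per kilobase of gene length, scaled to the library's total). That length is a single deposited value per gene, whichever transcripts were expressed, so the order of genes depends on it. In injured lungs Cxcr2 (21.5 ± 7.60 FPKM), Fpr1 (19.8 ± 3.56 FPKM) and C5ar1 (17.2 ± 1.46 FPKM) stood highest (SD, n = 3 each), and neighbours in this order overlapped. Ccr1, Fpr2 and Ccr2 followed as a second tier at 12.3 ± 0.784, 11.8 ± 2.34 and 11.6 ± 1.69 FPKM, overlapping one another but not C5ar1. Ltb4r1 (5.89 ± 0.322 FPKM) and Cx3cr1 (4.94 ± 0.816 FPKM) overlapped, and C3ar1 (2.96 ± 1.02 FPKM) and C5ar2 (1.87 ± 0.311 FPKM) stood lowest and overlapped too. In naive lungs Fpr1 led at 10.6 ± 1.59 FPKM without overlap with C5ar1 at 7.16 ± 0.816 FPKM. Ccr2, Fpr2, Cx3cr1 and Ccr1 came next, from 6.04 ± 1.55 to 3.05 ± 0.296 FPKM, each overlapping its neighbour. Cxcr2 took place 8 of 10 in naive lungs, at 1.91 ± 0.559 FPKM, between Ltb4r1 at 2.16 ± 0.226 and C3ar1 at 1.31 ± 0.111 FPKM. C5ar2 was lowest at 1.19 ± 0.117 FPKM.

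The 10 genes together reached 121, 116 and 93.2 FPKM in injured lungs, against 40.7, 45.9 and 40.8 FPKM in naive lungs. Cxcr2 made up 19.2% ± 4.61 of this sum in injured lungs and 4.56% ± 1.57 in naive lungs (SD, n = 3 each). Fpr1 made up 18.0% ± 0.908 in injured and 25.0% ± 2.68 in naive lungs, and Cx3cr1 4.49% ± 0.378 in injured and 9.10% ± 1.07 in naive lungs. C5ar1 kept a similar part, with 15.8% ± 1.19 in injured and 16.9% ± 1.97 in naive lungs. Shares of 1 sum depend on each other, so a larger part of Cxcr2 lowers the others.

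**Figure D3:**
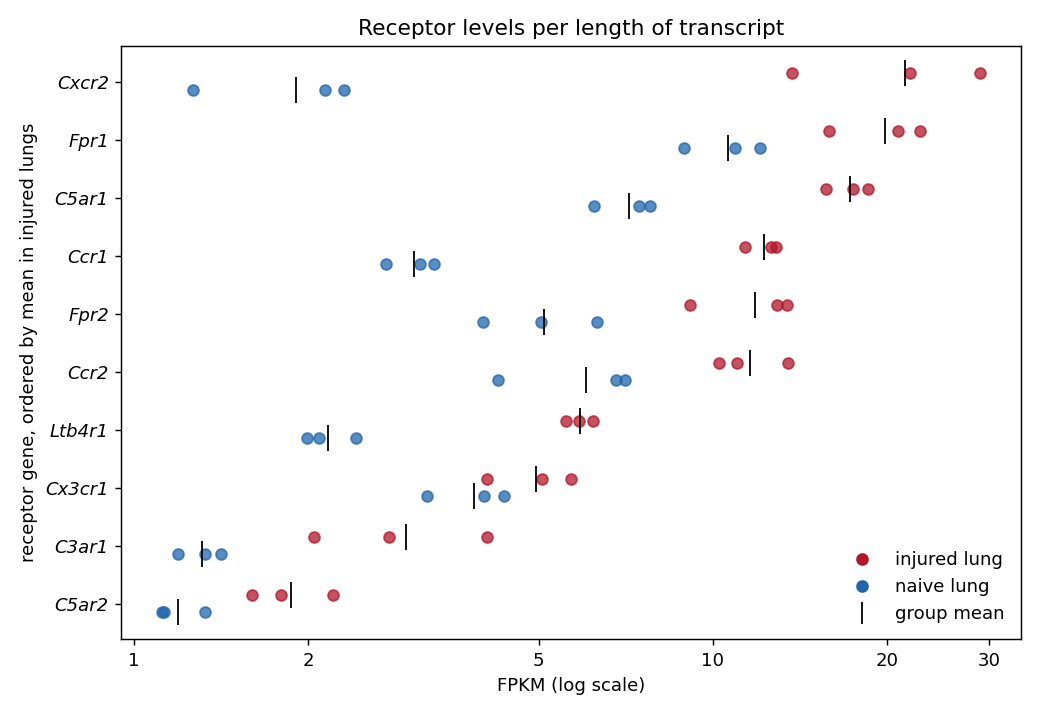
FPKM on a log scale (x axis) of each receptor gene (y axis, ordered by the mean in injured lungs), with injured lungs in red above naive lungs in blue and a black tick for the group mean. Cxcr2 stands first in injured lungs at a mean of 21.5 FPKM and eighth in naive lungs at 1.91 FPKM, while C3ar1 and C5ar2 stand last in both groups.

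In whole lungs, more cells of a type and more RNA per cell cannot be told apart. Ptprc, the pan-leukocyte antigen CD45, had 161.8, 144.1 and 106.7 CPM in injured lungs, against 131.7, 122.8 and 107.2 CPM in naive lungs, and was not called (log2 fold change 0.19 ± 0.15, edgeR adjusted p = 0.598). Relative to Ptprc in the same lung, per length, Cxcr2 averaged 0.790 ± 0.129 in injured and 0.0839 ± 0.0304 in naive lungs, and Cx3cr1 0.188 ± 0.0226 in injured and 0.167 ± 0.0151 in naive lungs (SD, n = 3 each). Ratios to Ptprc overlapped between the groups for Cx3cr1 and for C3ar1, where injured replicate 1 lay under naive replicate 3, and did not overlap for the other receptors.

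Among markers of cells that can carry these receptors, the neutrophil list had the most calls. The shares of all genes tested that edgeR called were 2.16% higher and 0.956% lower. Of 14 neutrophil markers, 11 were called higher and 0 lower (edgeR, median log2 fold change 3.43), and their summed level was 1471, 1255 and 759 CPM in injured lungs, against 226, 154 and 187 CPM in naive lungs. Ly6g, the surface antigen that defines mouse neutrophils, had 6.25, 6.96 and 2.24 CPM in injured lungs, against 0.0672, 0.106 and 0.293 CPM in naive lungs (log2 fold change 4.91 ± 0.61, edgeR adjusted p = 0.00518). No neutrophil marker was at 0 in any library. Of 8 classical monocyte markers, 4 were called higher and 0 lower (median 0.68). Their sums were 2200, 2159 and 2631 CPM in injured lungs, against 1727, 1727 and 1824 CPM in naive lungs. These sums were mostly Fn1 and Hp, which were not called. Of 10 interstitial macrophage markers, 4 were called higher and 0 lower (median 0.67), among them the complement genes C1qa, C1qb and C1qc. Their sums were 1274 to 1315 CPM in injured and 1253 to 1320 CPM in naive lungs. These sums were mostly Apoe and Lyve1, which were not called. Lyve1 averaged 273 CPM in injured and 464 CPM in naive lungs, and Apoe 718 CPM in injured and 601 CPM in naive lungs. Of 10 nonclassical monocyte markers 1 was called higher, Ace, which lung endothelium also expresses, with a list median of -0.04 and sums, mostly Ace itself, of 2341 to 2701 CPM in injured and 1668 to 1855 CPM in naive lungs. Of 12 alveolar macrophage markers 1 was called higher, Chil3, with a list median of 0.0077 and sums, mostly Chil3 itself, of 1638 to 1692 CPM in injured and 1022 to 1338 CPM in naive lungs. Of 8 T cell markers 0 were higher and 4 lower (median -0.84), with sums of 51.3 to 62.1 CPM in injured and 93.2 to 101 CPM in naive lungs. Of 8 dendritic cell markers 0 were higher and 2 lower, with sums of 546 to 642 CPM in injured and 798 to 882 CPM in naive lungs. The 2 called were H2-Ab1 and H2-Aa, which made up most of these sums, and the other 6 were not called. H2-Ab1 averaged 252 CPM in injured and 375 CPM in naive lungs, and H2-Aa 242 CPM in injured and 365 CPM in naive lungs. EdgeR called 0 markers of B cells (of 5), NK cells (of 7), lung epithelium (of 8), endothelium (of 6), heart muscle (of 5 tested) and red cells (of 5). At an unadjusted p under 0.05 these lists gave 2 lower for B cells, 1 lower each for NK cells, endothelium and heart muscle, 2 higher for epithelium and 0 for red cells. DESeq2 called 1 epithelial marker higher and 0 in the other 5 lists, and limma-voom called 0 in all 6. The part of these cell types in the levels of the receptors was not tested.

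Set against the summed neutrophil markers of the same lung, the direction for Cxcr2 depended on which markers were summed. The other receptors had lower percentages in injured lungs. The CPM of Cxcr2 was 5.96%, 5.29% and 5.48% of that sum in injured lungs, against 2.87%, 2.51% and 3.85% in naive lungs. G0s2 and Hdc, listed as neutrophil markers but not called, made up 7.33% to 16.2% of the sum in injured lungs and 56.4% to 58.8% in naive lungs. Without these 2 markers, left out after their values were seen, Cxcr2 was at 6.43%, 5.84% and 6.54% in injured lungs, against 6.59%, 6.00% and 9.34% in naive lungs, with overlapping groups and a lower mean in injured lungs. Because the 2 markers held more of the naive sums, leaving them out lowers injured percentages relative to naive ones for any gene. The direction of that shift was therefore fixed in advance, and nothing is read from it. The CPM of Cx3cr1 was 1.28%, 1.68% and 1.99% of the sum in injured lungs, against 6.61%, 10.6% and 6.56% in naive lungs, and without the 2 markers at 1.38% to 2.38% in injured and 15.2% to 25.3% in naive lungs. The other 8 receptors also had the lower percentages in injured lungs, with overlapping groups for C3ar1 and Ccr1 that no longer overlapped without the 2 markers. Ccr2, for example, was at 4.00% to 7.22% in injured lungs and at 12.5% to 23.7% in naive lungs, and without the 2 markers at 4.32% to 8.61% in injured and 30.3% to 56.7% in naive lungs.

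The injured lungs differed from one another in a way that several receptors shared. Injured replicate 3 was the lowest of the injured lungs for 7 of the 10 receptors and for the summed neutrophil markers. It was also lowest for Ptprc and for the summed endothelial markers, but highest for the summed classical monocyte markers. Relative to Ptprc, per length, replicate 3 was lowest for Cxcr2 alone (0.922, 0.784 and 0.664 in replicates 1 to 3). On that scale it was in the middle for Fpr2 and Cx3cr1. It was highest for the other receptors, such as Fpr1 (0.727, 0.747 and 0.770). Relative to the mean of the injured lungs on the log2 scale, Cxcr2 stood at 0.43, 0.03 and -0.65 in replicates 1 to 3, and the neutrophil sum at 0.34, 0.11 and -0.61. C3ar1 had the opposite order, at -0.53, -0.11 and 0.46, and Ltb4r1 was likewise highest in replicate 3. With 3 lungs these orders are a description. The median coefficient of variation over the 10 receptors was 16.5% in injured lungs and 13.4% in naive lungs.

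**Figure D4:**
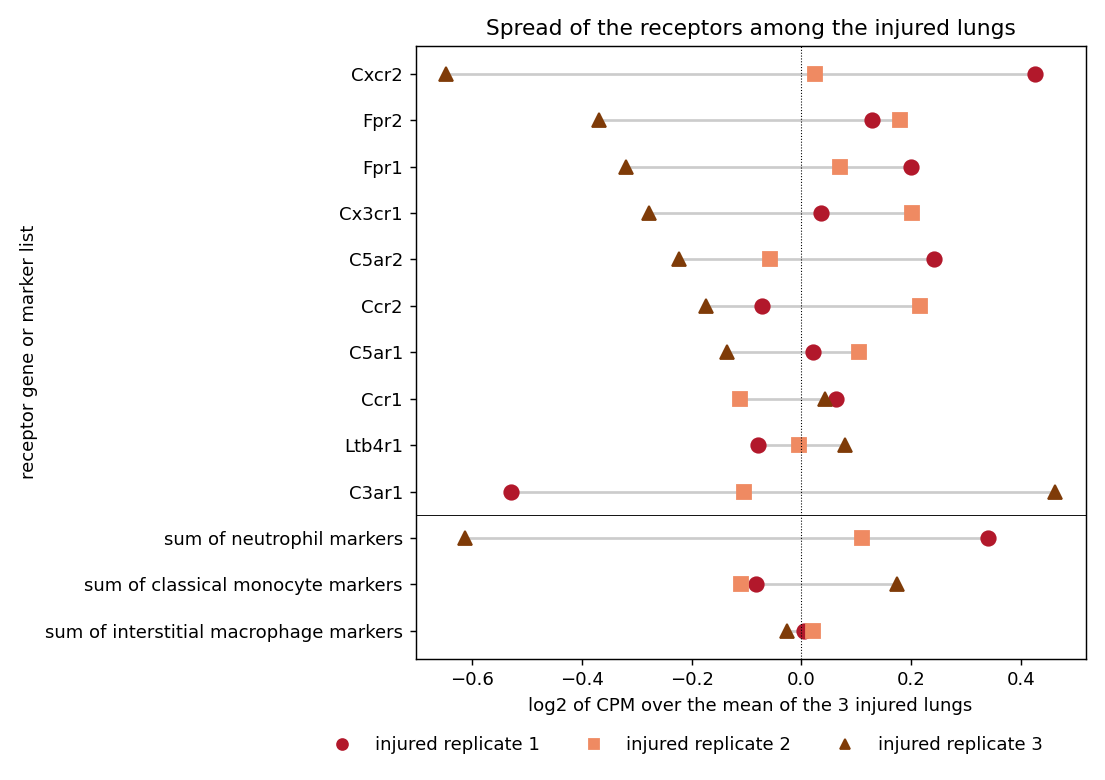
Log2 of the CPM over the mean of the 3 injured lungs (x axis) for each receptor and for the sums of 3 marker lists (y axis), with injured replicates 1 to 3 as circle, square and triangle. Cxcr2 and the neutrophil marker sum both run from replicate 3, at -0.65 and -0.61, up to replicate 1, while C3ar1 runs the other way to 0.46 in replicate 3. The classical monocyte sum is mostly Fn1 and Hp, and the interstitial macrophage sum mostly Apoe and Lyve1.

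The transcripts of the ligands, or of the enzymes that make them, form a list apart from the receptors. Of 24 tested, 10 were called higher and 0 lower in injured lungs, where 2.16% of all genes tested were called higher and 0.956% lower. The median log2 fold change of the 24 was 1.64, beside -0.00096 over all genes tested. At an unadjusted p under 0.05 the counts were 17 and 0, DESeq2 called 14 and 0, and limma-voom 4 and 0. Over all genes these rules gave 1403 and 1186, 585 and 417, and 308 and 136. The list was chosen with earlier results of these data known.

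Among agonists of the formyl peptide receptors, the serum amyloid A genes rose. Saa3, the isoform made outside the liver, had 302, 303 and 422 CPM in injured lungs, against 2.66, 1.06 and 1.55 CPM in naive lungs (log2 fold change 7.56 ± 0.33, edgeR adjusted p = 0.000165). Saa1 had 1529 counts over the injured lungs and 3 over the naive lungs, a ratio of 636 with a 95% interval of 217 to 3085 that covers counting error only. Saa1 and Saa2 are near-identical copies whose reads the counting could have split, so both levels are uncertain. Saa2 had 2.23, 1.15 and 7.97 CPM in injured lungs, against 0.0336, 0 and 0.117 CPM in naive lungs (log2 fold change 5.89 ± 1.07, adjusted p = 0.0334, edgeR). Anxa1, whose product annexin A1 acts on Fpr2, averaged 316 ± 13.6 CPM in injured and 240 ± 24.7 CPM in naive lungs (SD, n = 3 each) and was not called (edgeR adjusted p = 0.064). Camp, the precursor of cathelicidin, had 4.51, 0.709 and 2.36 CPM in injured lungs, against 0.0336, 0.159 and 0.995 CPM in naive lungs, and was not called either. The call of Saa2 was lost with no filter on low counts, by limma-voom, and without injured replicate 1 or any naive replicate, and that of Saa3 under no setting tried. Saa1, called with all libraries, lost its call by limma-voom and without naive replicate 1 or 3. Leaving out injured replicate 3 put Saa2 at 4.72 on the log2 scale, and leaving out naive replicate 3 at 7.20.

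The precursors of the complement ligands were not called. C3, the source of C3a, averaged 1644 ± 529 CPM in injured and 1189 ± 169 CPM in naive lungs (log2 fold change 0.47 ± 0.23). Hc, which encodes complement C5, averaged 479 ± 132 CPM in injured and 618 ± 89.97 CPM in naive lungs (-0.37 ± 0.19). C5a and C3a are released by cleavage of proteins, which transcripts do not show.

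Of the genes that make leukotriene B4, Alox5ap, which presents arachidonic acid to 5-lipoxygenase, had 108.4, 98.2 and 78.0 CPM in injured lungs, against 40.7, 37.6 and 33.7 CPM in naive lungs (log2 fold change 1.35 ± 0.13, edgeR adjusted p = 0.000892). It remained called under every setting tried. Alox5, the lipoxygenase itself, averaged 24.9 ± 6.19 CPM in injured and 17.4 ± 3.11 CPM in naive lungs and was not called. Lta4h, the hydrolase of the last step, averaged 62.7 ± 0.353 CPM in injured and 58.0 ± 0.953 CPM in naive lungs and was not called.

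Of the CXC ligands of Cxcr2, Cxcl1 and Cxcl2 rose, and Cxcl3, Cxcl5 and Ppbp were not called. Cxcl2 had 12.7, 1.99 and 7.68 CPM in injured lungs, against 0.168, 0 and 0.0878 CPM in naive lungs (log2 fold change 6.21 ± 0.96, edgeR adjusted p = 0.0229). Cxcl1 had 4.47, 1.06 and 2.70 CPM in injured lungs, against 0.336, 0.370 and 0.380 CPM in naive lungs (log2 fold change 2.90 ± 0.53, edgeR adjusted p = 0.0198). Injured replicate 2 was lowest for both, and neither overlapped between the groups. Cxcl3 and Cxcl5 did not overlap either, with log2 fold changes of 4.60 ± 0.93 and 5.23 ± 1.13, and were not called (edgeR adjusted p = 0.0584 and 0.077). Ppbp, a platelet chemokine, had 18.4, 11.3 and 9.58 CPM in injured lungs, against 16.6, 6.24 and 3.19 CPM in naive lungs, and was not called. Both calls were lost by limma-voom and without any naive replicate, that of Cxcl1 also without injured replicate 1, and that of Cxcl2 also without injured replicate 3 and with no filter. Cxcl2 stood at a log2 fold change of 5.60 without injured replicate 1 and of 6.93 without naive replicate 1.

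Each CC ligand was grouped with a single receptor, though some act on several. Of the 4 grouped with Ccr1, 3 rose. Ccl9 had 30.8, 54.1 and 63.7 CPM in injured lungs, against 10.05, 13.3 and 15.5 CPM in naive lungs (log2 fold change 1.93 ± 0.30, edgeR adjusted p = 0.0215). Ccl6 had 210.5, 236 and 278 CPM in injured lungs, against 169, 169 and 157 CPM in naive lungs, with a log2 fold change of 0.55 ± 0.11 (edgeR adjusted p = 0.0283). Ccl3 had 4.86, 1.28 and 2.74 CPM in injured lungs, against 0.336, 0.423 and 0.585 CPM in naive lungs, with a log2 fold change of 2.69 ± 0.51 (edgeR adjusted p = 0.0228). Ccl5, which lymphocytes make in quantity, averaged 10.8 ± 1.48 CPM in injured and 14.1 ± 3.67 CPM in naive lungs and was not called. These 3 calls were each lost without any naive replicate, those of Ccl6 and Ccl9 also without injured replicate 2, and that of Ccl3 also without injured replicate 1 and by limma-voom. That of Ccl9 was lost with no filter too.

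Of the ligands grouped with Ccr2, Ccl2 rose. It had 5.11, 2.44 and 10.3 CPM in injured lungs, against 0.504, 0.529 and 0.995 CPM in naive lungs (log2 fold change 3.10 ± 0.57, edgeR adjusted p = 0.0296). Its call was lost without injured replicate 1 or any naive replicate, by limma-voom and with no filter, and its log2 fold change was 2.43 without injured replicate 3. Ccl7 and Ccl8 did not overlap between the groups and were not called, with log2 fold changes of 3.82 ± 0.86 and 1.06 ± 0.31. Ccl12 averaged 1.14 ± 0.823 CPM in injured and 1.00 ± 0.360 CPM in naive lungs and was not called. Cx3cl1, the fractalkine that Cx3cr1 binds, had 72.6, 60.7 and 47.6 CPM in injured lungs, against 69.6, 80.1 and 66.7 CPM in naive lungs, and was not called (log2 fold change -0.26 ± 0.15).

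**Figure D5:**
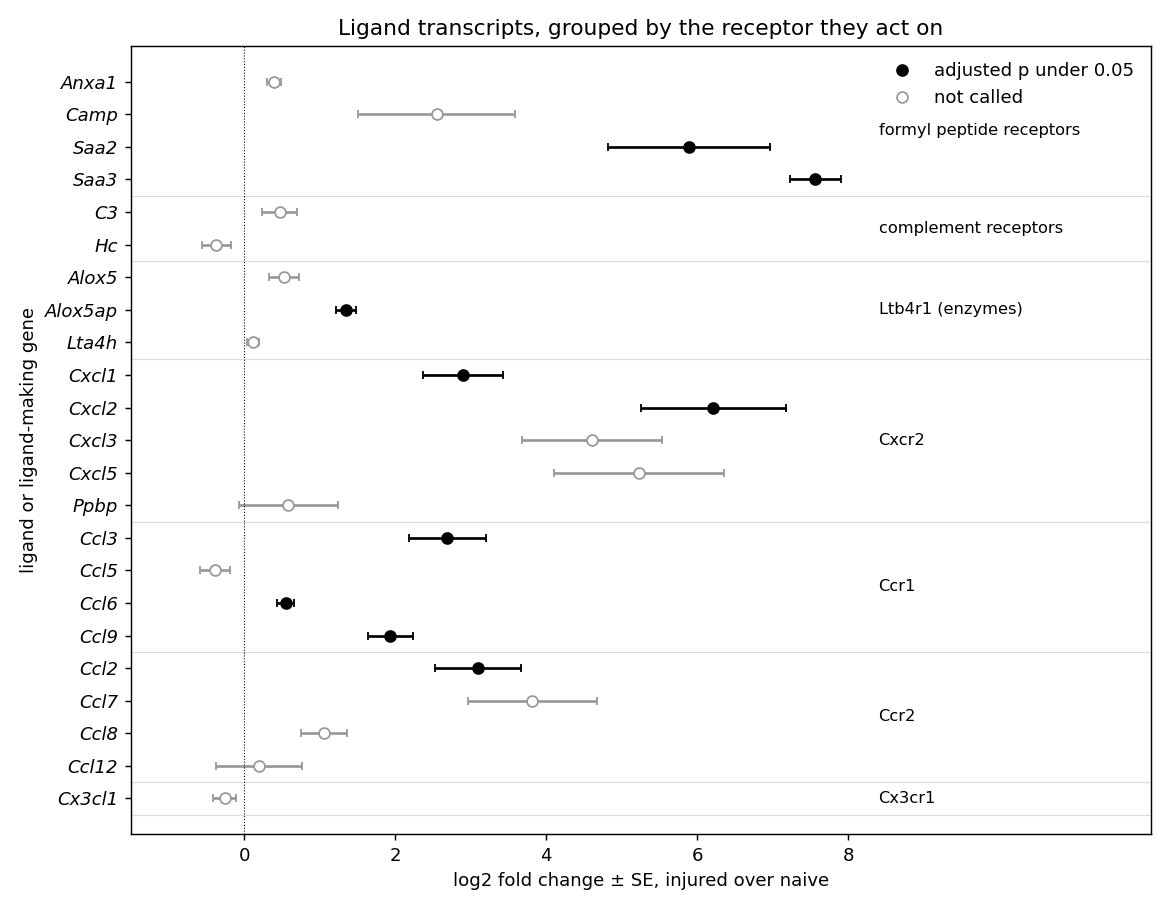
Log2 fold change ± SE of injured over naive lungs (x axis) for 23 ligand or ligand-making genes (y axis), with filled points for an adjusted p under 0.05 in edgeR. Each gene is placed in a single receptor group, though some ligands act on several receptors. Filled points occur for the formyl peptide receptors, Ltb4r1, Cxcr2, Ccr1 and Ccr2, and Cx3cl1 lies at -0.26. Saa1, called higher with a log2 fold change of 9.10 ± 0.86, is not shown.

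Other chemoattractant receptors of leukocytes formed a list of their own. Of 27 listed, 22 had a row under the symbol used, 20 passed the filter, and 1 was called higher and 0 lower, with a median log2 fold change of -0.12. Beside this, 2.16% of all genes tested were called higher and 0.956% lower. At an unadjusted p under 0.05 edgeR gave 4 higher and 5 lower, DESeq2 called 2 and 3, and limma-voom 1 and 0. The gene called was Ptafr, the receptor of platelet-activating factor, with 15.7, 10.7 and 11.9 CPM in injured lungs, against 5.65, 5.92 and 5.47 CPM in naive lungs (log2 fold change 1.17 ± 0.18, edgeR adjusted p = 0.00843). Of 4 atypical chemokine receptors, which bind chemokines without G protein signalling, edgeR called 0 (1 higher and 2 lower at an unadjusted p under 0.05), DESeq2 1 higher and 1 lower, and limma-voom 0. Ackr2 and Ackr3, the most abundant of these per length, had log2 fold changes of -0.24 ± 0.15 and -0.31 ± 0.12.

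Of 34 genes that carry the signal from these receptors to the cytoskeleton or dampen it, 4 were called higher and 0 lower. The median log2 fold change was 0.15. The count and the median mix both kinds, since receptor kinases, arrestins and RGS proteins were listed too. Among all genes tested, 2.16% were called higher and 0.956% lower. At an unadjusted p under 0.05 edgeR gave 10 higher and 2 lower, DESeq2 called 6 and 0, and limma-voom 4 and 0. Rac2, a small GTPase of blood cells that drives actin assembly, had 102, 88.0 and 71.2 CPM in injured lungs, against 45.9, 49.6 and 48.0 CPM in naive lungs (log2 fold change 0.87 ± 0.13, edgeR adjusted p = 0.00745). The others were the Src kinase Fgr (1.11 ± 0.21), the exchange factor Vav1 (0.71 ± 0.12) and the actin regulator Coro1a (0.56 ± 0.10). Gnai2, the inhibitory G protein subunit to which these receptors couple, had 715, 668 and 674 CPM in injured lungs, against 607, 661 and 691 CPM in naive lungs, and was not called (edgeR adjusted p = 0.778). The calls of Fgr and Coro1a were lost without injured replicate 1 or 2 or naive replicate 2, that of Fgr also without naive replicate 1, and that of Vav1 without naive replicate 2.

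Likeness between genes was measured as the root mean square difference of log2 CPM profiles, centred on each gene's mean, over the 6 libraries and 15485 other genes. The genes nearest to 9 of the receptors were Cd244 and Dfna5 for Fpr1, Rdh12 and Nfam1 for Fpr2, F10 and Ltb4r1 for C5ar1, and Rom1 and Abca7 for C5ar2. They were Fcgr4 and 1810011H11Rik for Ltb4r1, Mrgpra2b and Mmp9 for Cxcr2, Gda and Lrrc25 for Ccr1, 2810029C07Rik and Tlr1 for Ccr2, and Slc6a9 and Mocos for Cx3cr1. The nearest difference of these 9 ran from 0.0384 for C5ar2 with Rom1 to 0.188 for Cxcr2 with Mrgpra2b. Among the receptors themselves, C5ar1 and Ltb4r1 were closest, at 0.145, and Cxcr2 and Cx3cr1 farthest apart, at 1.62.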

How the data were processed

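RNA libraries of 6 mouse left lungs were prepared with a NEBNext Ultra II kit and sequenced as paired reads of 150 bases, per the labels' protocols. STAR, STAR-Fusion, HTSeq, edgeR, DESeq2 and the build mm10 appear in the submitters' processing notes, without versions, settings or the strand of counting, so antisense reads cannot be told apart. The authors deposited raw read counts per gene, which were the input of every test here. The authors also deposited a normalized signal, which is the counts over a constant of each library (relative tolerance 1e-06). The authors' FPKM follow from counts, gene length and the table's total within the same tolerance. The authors' log2 fold changes are quoted where named, and the p-values the authors deposited were not used.

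Counts were fitted with edgeR 4.0.16 in R 4.3.3 (TMM, filterByExpr, robust quasi-likelihood test, two-sided) and adjusted by Benjamini-Hochberg over 15486 genes, with calls at 0.05. Alternatives were DESeq2 1.42.0, limma-voom (limma 3.58.1), other scalings and filters, a replicate block, and each library left out. The code was tested on simulated data. The receptors and all lists were chosen with earlier results of these data known. Named genes were all 10 receptors and all ligands, up to 4 called genes of each other list by size of change (up to 2 in the opposite direction, or the 2 most abundant where none was called), Ptprc, Ly6g, Rac2 and Gnai2, and the 2 nearest genes of each receptor, of which those of C3ar1 are not reported here. Ltb4r2 and Cxcr1 were added after their values were seen. Promoter stretches are from RefSeq.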

Additional observations from a re-analysis of the deposited data

How the results depend on the processing

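Over all genes, 334 were called higher and 148 lower; DESeq2 called 585 and 417, and no filter on low counts gave 269 lower. With each library left out in turn, 145 to 333 genes were higher and 48 to 146 lower, 4 to 7 receptors higher, 2 to 10 ligands higher and 0 to 1 lower, 1 to 3 other chemoattractant receptors higher and 0 to 2 lower, 1 to 5 signalling genes higher, and 11 to 22 markers higher and 2 to 7 lower. Limma-voom called 4 ligands higher. Of the other receptors, DESeq2 called 2 higher and 3 lower and no filter 2 lower, and DESeq2 called 11 markers lower. Same-numbered samples did not deviate together (r = 0.0767, -0.0853 and 0.154), so the replicate numbers were not taken as pairs; the replicate block gave 413 genes higher and 208 lower, 8 receptors higher, and 2 other receptors higher and 1 lower. Of 1045 single-gene values over 75 genes, 894 kept direction and call, 127 lost a call, 14 gained one and 10 changed sign. The sign changes were in genes that were not called. The Ccl12 log2 fold change was -0.0756 by limma-voom and ran from -0.41 to 0.64 with 1 library left out. The Scgb1a1 log2 fold change ran from -0.32 to 0.056. The Hbb-bs log2 fold change was 0.045 by limma-voom and 0.048 with the block, and between -0.82 and 0.88 with 1 library left out. The Hba-a1 log2 fold change was 0.060 by limma-voom and 0.077 with the block, and between -0.77 and 1.02. The cause was not tested. Without G0s2 and Hdc in the neutrophil sum, chosen after seeing the data, the Cxcr2 percent of neutrophil marker CPM, injured minus naive mean, was -1.04 percentage points, against 2.499 with all 14 markers, because these 2 hold most of the naive sum. Depth limits scarce genes such as Ltb4r2, Saa1 and Cxcl2.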
